A study of Mus musculus with 12 samples.

Results

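Hearts of embryonic day 9.5 mice labelled as carrying floxed alleles of both Asb2 and Flna were set against hearts labelled as carrying floxed alleles of Asb2 alone. The double mutant group (NkxCre.Asb2fl/fl.Flnafl/fl) and the Asb2 cKO group (conditional knockout, NkxCre.Asb2fl/fl) each had 3 RNA sequencing libraries. Both groups thus share the Cre driver and the homozygous floxed Asb2, and differ by label in Flna. A further 6 libraries served as background, 3 of a Flna-labelled group (NkxCre.Asb2fl/+.Flnafl/fl) and 3 of a control (NkxCre.Asb2fl/+), so that every embryo of the series carried NkxCre and at least 1 floxed Asb2 allele. The strain was given as C57/BL 6 throughout, and the series' design text counts the last of these groups and the Flna-labelled one as its controls. The genes described are those with a mean of at least 1 CPM (reads scaled to a common library size by the authors) over the 6 libraries of the 2 groups. There were 14037 such genes among 15124 listed for the 2 groups and 15663 in the whole series.

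ASB2 is the substrate-binding subunit of a cullin-RING ubiquitin ligase in muscle and blood cells, and the filamins are its best-known substrates. Filamin A, encoded by the X-linked gene Flna, crosslinks actin filaments and ties them to integrins and other membrane proteins, and it is removed as cardiac muscle cells differentiate. If a phenotype of Asb2 loss came from undegraded filamin A, removing Flna as well would be a way to test it, and the comparison of the double mutant with the Asb2 cKO asks which transcripts differ between the 2 genotypes. The labels do not say which Nkx gene drives the Cre. Whole hearts were used, so RNA of cells without Cre activity is included, and in such bulk samples fewer cells of a type cannot be told apart from less RNA per cell. The labels do not say whether each library is a separate embryo or a pool. Every p-value here sets a difference against the spread between libraries of the same group, and that spread may be technical in part or whole.

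The libraries held 40780462 to 42473118 reads in listed genes in the double mutant and 25954539 to 29434858 in the Asb2 cKO, so depth moved with the group, and 1 read was worth 0.0239 to 0.0248 CPM in the double mutant and 0.0344 to 0.038 CPM in the Asb2 cKO. Heart muscle genes were abundant in all 6 libraries. Tnnt2, which encodes cardiac troponin T, stood at 2216, 3175 and 3171 CPM in the double mutant and at 1692, 2184 and 3147 CPM in the Asb2 cKO. Libraries also differed in sex-linked transcripts. Xist, the RNA of the inactive X chromosome, stood at 0.0477, 0.546 and 9.34 CPM in double mutant libraries 1, 2 and 3, against 571, 0.38 and 377 CPM in Asb2 cKO libraries 1, 2 and 3. The Y-linked genes Ddx3y, Uty, Kdm5d and Eif2s3y summed to 197, 218 and 217 CPM in the double mutant and to 52.6, 212 and 96.2 CPM in the Asb2 cKO. Asb2 cKO libraries 1 and 3 therefore held Xist and Y-linked RNA together, whereas Asb2 cKO library 2 had the sex-linked pattern of the double mutant. Control library 3 also held both (106 CPM of Xist and 120 CPM over the Y-linked genes). The Flna-labelled libraries had the pattern of the double mutant, with Xist at 0.0506 to 0.367 CPM and the Y-linked genes at 170 to 172 CPM. Sex-linked pattern thus moved in part with the Flna label, and the 2 cannot be told apart here. The label Flnafl/fl names 2 alleles of the X-linked Flna, and how it goes with this male-like pattern is not given. For the lists and genes most affected, values without Asb2 cKO libraries 1 and 3 are given too.

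Few transcripts separated the 2 groups. By limma's moderated test on log2(CPM + 0.5), 3 of 14037 genes (0.0214%) passed a Benjamini-Hochberg adjusted p of 0.05, 2 of them higher (0.0142%) and 1 lower (0.00712%) in the double mutant. Before adjustment 471 genes (3.36%) had p below 0.05, 223 of them higher (1.59%) and 248 lower (1.77%). The levels of the 3 double mutant and 3 Asb2 cKO libraries did not overlap for 1106 genes (7.88%), with 611 higher (4.35%) and 495 lower (3.53%) in the double mutant. The median log2 difference over all genes was 0.016, and 94.7% of genes lay within 0.5 and 99.3% within 1 log2 of no difference. The 95% confidence interval of a gene's difference extended a median of 0.39 log2 to either side, and for 12331 genes (87.8%) the whole interval stayed within 1 log2, which is a 2-fold change. For the other genes a change of that size was not excluded by 3 libraries a group. The quasi-likelihood test of edgeR on recovered reads called 4 genes and DESeq2 called 14, and both counts include the 3 genes. Leaving out Asb2 cKO library 2, which had the sex-linked pattern of the double mutant, raised the count to 26. Those genes include the Y-linked Ddx3y and Uty and liver genes such as Afp, Ttr, Fgb and Ambp. Asb2 cKO library 2 also had the lowest weight (0.422) of the 6 when limma estimated library weights.

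**Figure D1:**
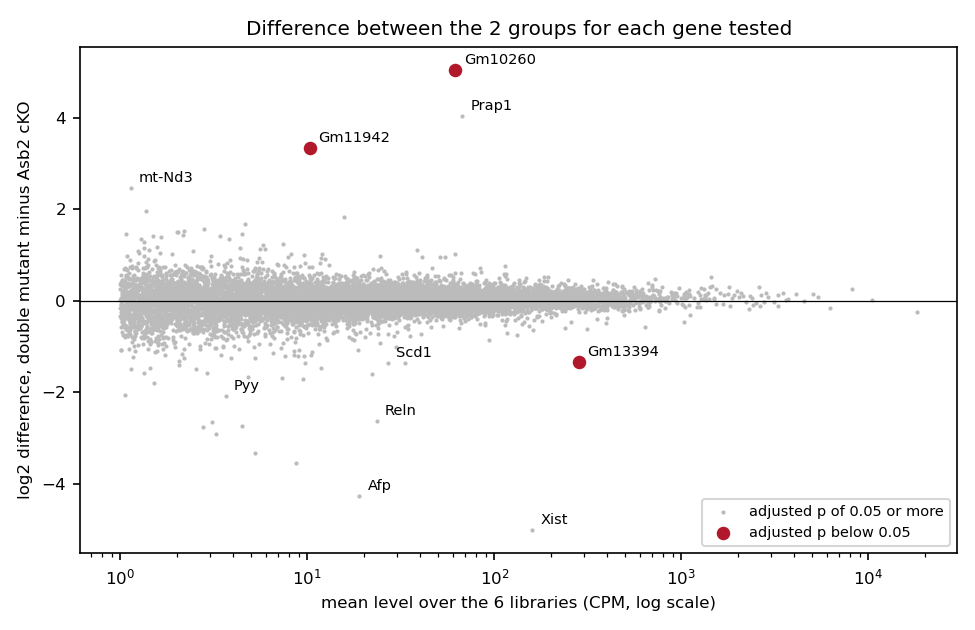
Log2 difference, double mutant minus Asb2 cKO (y axis), against mean level over the 6 libraries in CPM on a log axis (x axis), with 1 point per gene tested. The 3 genes past an adjusted p of 0.05 are in red. Nearly all genes lie within 1 log2 of 0, and the widest differences outside the red points belong to genes such as Xist, Afp and Prap1, whose libraries disagreed within a group.

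The 3 genes that passed are near-identical copies of genes that every cell expresses. Gm10260 (ENSMUSG00000069117, chr13:97760072-97760632, minus strand, GRCm38) is a single-exon copy of Rps18, which encodes a protein of the small ribosomal subunit, and is annotated as protein coding. Gm11942 (ENSMUSG00000094344, chr4:32964888-32965232, plus strand) is a processed pseudogene of Rplp1, which encodes a stalk protein of the large ribosomal subunit. Gm13394 (ENSMUSG00000083773, chr2:28933610-28934609, minus strand) is a processed pseudogene of Gapdh, the glycolytic dehydrogenase. Aligned to the coding sequence of the source gene in GENCODE M21, Gm10260 matched Rps18 at 99.1% of 459 bases with 4 differences, Gm11942 matched Rplp1 at 97.4% of 345 bases with 9 differences, and Gm13394 matched Gapdh at 99.9% of 1000 bases with 1 difference. Each copy was also matched to all annotated transcripts, at 95% or more over at least 90% of its sequence. Counting the source gene but not the copy itself, 6 genes matched Gm10260, 2 matched Gm11942 and 67 matched Gm13394. The sequences show how few positions tell a read of the copy from a read of its source. Each pair is printed over 120 coding bases, 5′ to 3′, with differing bases in capitals, and positions are counted from 1 at the A of the source gene's start codon.
Gm10260, bases 312 to 431: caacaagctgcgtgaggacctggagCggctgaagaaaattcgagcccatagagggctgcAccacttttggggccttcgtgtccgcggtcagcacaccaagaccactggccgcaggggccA
Rps18, bases 312 to 431: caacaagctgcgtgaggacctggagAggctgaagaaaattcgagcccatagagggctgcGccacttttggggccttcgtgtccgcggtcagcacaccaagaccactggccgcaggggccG
Gm11942, bases 139 to 258: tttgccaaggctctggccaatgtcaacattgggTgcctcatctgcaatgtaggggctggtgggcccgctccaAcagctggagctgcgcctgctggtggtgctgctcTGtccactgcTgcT
Rplp1, bases 139 to 258: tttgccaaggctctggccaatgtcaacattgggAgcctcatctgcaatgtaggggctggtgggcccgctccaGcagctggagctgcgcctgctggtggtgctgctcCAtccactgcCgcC
Gm13394, bases 286 to 405: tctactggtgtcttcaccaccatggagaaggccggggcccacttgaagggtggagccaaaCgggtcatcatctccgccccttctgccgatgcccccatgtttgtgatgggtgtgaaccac
Gapdh, bases 286 to 405: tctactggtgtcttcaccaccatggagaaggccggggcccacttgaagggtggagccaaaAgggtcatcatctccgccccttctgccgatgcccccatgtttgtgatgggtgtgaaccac
The substitutions in these windows, source base first, were A337C, G371A and G431A for Gm10260, A172T, G211A, C245T, A246G, C255T and C258T for Gm11942, and A346C for Gm13394. A further T186C lies outside the printed window of Gm10260, and G10A, C57T and C330T outside that of Gm11942. How the authors assigned reads that fit several places is not given in the sources used here, so the levels of all 3 copies are uncertain, and an allele carried by some embryos cannot be told apart from a change in expression.

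The copy of Rps18 was the gene with the largest difference among those that passed. Gm10260 stood at 154, 139 and 68.5 CPM in the double mutant, against 2.65, 2.13 and 4.47 CPM in the Asb2 cKO, a log2 difference of 5.05 (95% interval 4.33 to 5.76, adjusted p = 0.000239, limma). Every double mutant library was above every Asb2 cKO library. The same high level appeared in Flna-labelled libraries 1 and 3 (130 and 99.5 CPM) and not in Flna-labelled library 2 (3.17 CPM) or in the control (5.27, 4.12 and 4.004 CPM). Its source gene Rps18 stood at 138, 147 and 88.7 CPM in the double mutant and 145, 135 and 175 CPM in the Asb2 cKO, and did not pass (log2 difference -0.31, interval -0.73 to 0.12). The sum of Gm10260 and Rps18 was 292, 286 and 157 CPM in the double mutant and 147, 137 and 180 CPM in the Asb2 cKO, so the sums overlapped.

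Gm11942 stood at 20.5, 18.97 and 18.1 CPM in the double mutant, against 1.90, 1.18 and 1.31 CPM in the Asb2 cKO, a log2 difference of 3.34 (interval 2.85 to 3.84, adjusted p = 0.000239, limma). The groups did not overlap, and the double mutant libraries lay close to each other. Among the other libraries only Flna-labelled library 2 was high, at 39.98 CPM, while Flna-labelled libraries 1 and 3 had 2.02 and 0.955 CPM and the control libraries 1.65, 2.50 and 1.51 CPM. Libraries of the Flna-labelled group that were high for Gm10260 were thus low for Gm11942, and the reverse. Rplp1 stood at 488.5, 509 and 350 CPM in the double mutant and 481, 387.5 and 513 CPM in the Asb2 cKO, with overlapping groups (log2 difference -0.04, interval -0.44 to 0.35). The sums of Gm11942 and Rplp1 overlapped too, at 508.9, 528.2 and 368.5 CPM in the double mutant and 482.6, 388.6 and 514.4 CPM in the Asb2 cKO.

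Gm13394 was the gene that was lower. It stood at 136, 172.5 and 174 CPM in the double mutant, against 435, 347.5 and 436.5 CPM in the Asb2 cKO, a log2 difference of -1.34 (interval -1.67 to -1.01, adjusted p = 0.0185, limma). The double mutant was close to the control, which had 200, 163 and 182 CPM, while the Flna-labelled libraries ranged most widely, at 0.455, 126 and 84.4 CPM. Gapdh itself stood at 22.7, 21.8 and 26.2 CPM in the double mutant and 20.1, 30.7 and 17.7 CPM in the Asb2 cKO (log2 difference 0.08, interval -0.37 to 0.53). Unlike in the other pairs, the sums of Gm13394 and Gapdh did not overlap. They were 158.7, 194.3 and 199.8 CPM in the double mutant and 454.9, 378.1 and 454.3 CPM in the Asb2 cKO. Per kilobase of the deposited gene length, the pseudogene averaged 73.8 CPM in the double mutant and 187 CPM in the Asb2 cKO. Gapdh averaged 9.89 CPM per kilobase in the double mutant and 9.58 in the Asb2 cKO, so the copy was counted far above its source. The deposited length of Gm13394 was 2176 bases, more than the 1000 bases of the GENCODE M21 model, so the authors' gene models differed from that release here. The call for Gm13394 was lost without any 1 of 5 libraries, the exception being Asb2 cKO library 2, with adjusted p of 0.0585 to 0.31, while its log2 difference stayed between -1.40 and -1.22 in those fits. It was also lost with Xist as a covariate (adjusted p = 0.265) and in limma without trend or robust fitting (adjusted p = 0.188), where the 3 genes called were Gm10260, Gm11942 and mt-Nd3. Gm10260 and Gm11942 kept their calls in every fit that left out 1 library. With Xist as a covariate both passed (adjusted p = 0.00562 each, limma). Without Asb2 cKO libraries 1 and 3 together, Gm11942 kept its call and Gm10260 lost it at a log2 difference of 5.44. In a joint fit that shares the spread of all 4 groups, Flna-labelled libraries included, none of the 3 genes passed (adjusted p = 0.998).

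**Figure D2:**
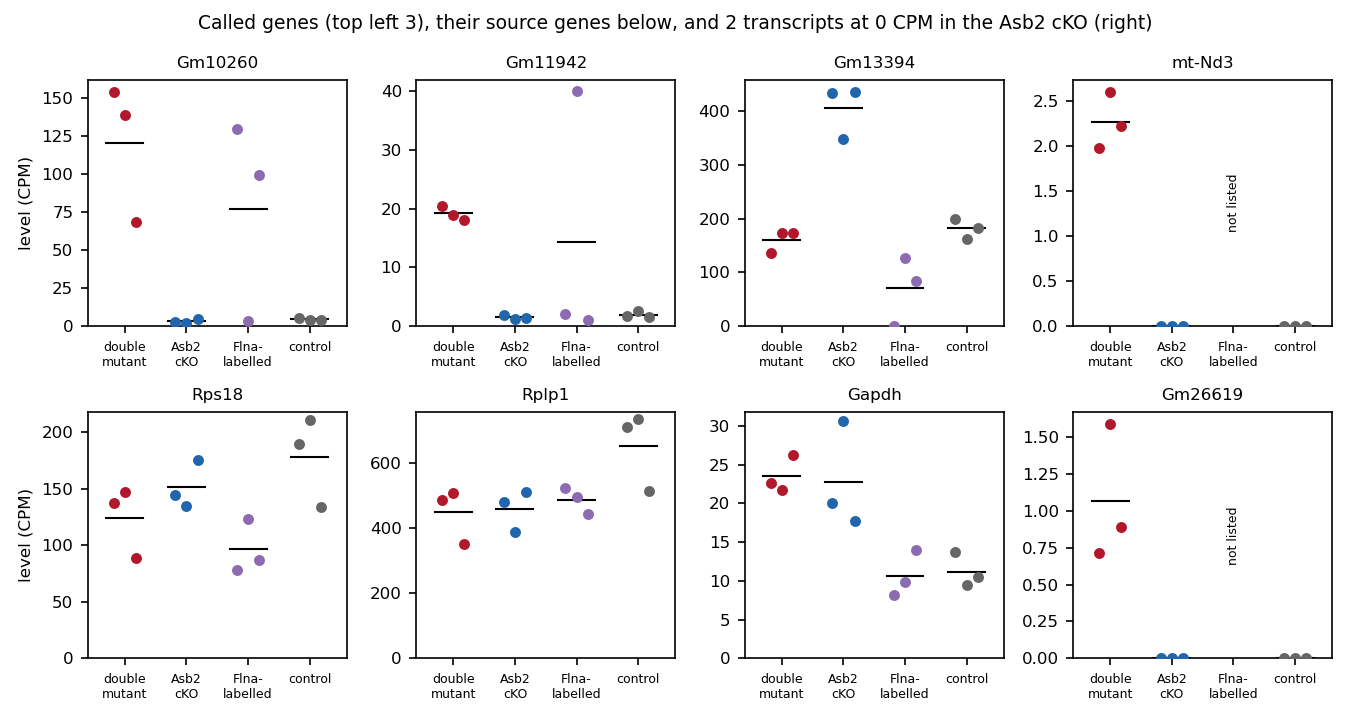
Levels in CPM on linear axes (y) in the 3 libraries of each group (x, points), with the group mean as a line, for the 3 genes that passed, their source genes below them, and mt-Nd3 and Gm26619. The 3 copies separate double mutant from Asb2 cKO, their source genes overlap, and the Flna-labelled libraries split between high and low for Gm10260 and Gm11942.

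Next by p-value stood mt-Nd3, which encodes a subunit of respiratory complex I in the mitochondrial genome. It had 1.98, 2.61 and 2.23 CPM in the double mutant (83, 105 and 90 reads), against 0 reads in each library of the Asb2 cKO and 0 CPM in each control library. It reached the mean of 1 CPM needed for testing through the double mutant alone, so its entry among the genes tested is no separate support. Against a floor of 3 reads over the Asb2 cKO group (0.0367 CPM) the mean of the double mutant was at least 61.9-fold higher. The gene did not pass in limma as run here (adjusted p = 0.0703), but passed in limma without trend or robust fitting (adjusted p = 0.00168), with library weights (adjusted p = 0.0254) and on leaving out Asb2 cKO library 2 (adjusted p = 0.0318). It also passed in edgeR's quasi-likelihood test (adjusted p = 0.0238) and in DESeq2 (adjusted p = 4.71e-07). It was not listed for the Flna-labelled libraries. The other 7 mitochondrially encoded genes tested were at 52.0 CPM or more in all 6 libraries of the 2 groups, and their estimates were lower rather than higher in the double mutant.

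Of the remaining genes among the 15 with the smallest p, none passed, and 9 of the 11 were lower in the double mutant. Pyy, a peptide hormone of gut endocrine cells, had 0.906, 1.59 and 0.743 CPM in the double mutant and 7.05, 3.88 and 7.81 CPM in the Asb2 cKO (log2 difference -2.08, interval -2.82 to -1.33, adjusted p = 0.27). Rfx6, a transcription factor of foregut endoderm and pancreas, had 0.286, 0.0248 and 0 CPM in the double mutant and 2.62, 1.48 and 1.93 CPM in the Asb2 cKO (log2 difference -2.06, adjusted p = 0.501). Foxa2, a pioneer factor of endoderm, had 3.29, 2.38 and 0.817 CPM in the double mutant and 10.54, 5.36 and 6.503 CPM in the Asb2 cKO (log2 difference -1.66, adjusted p = 0.999). For each of these the groups did not overlap, and all 3 Asb2 cKO libraries were higher. Rfx6 reached the mean of 1 CPM needed for testing only through the Asb2 cKO libraries. DESeq2 called Pyy (adjusted p = 4.4e-06) and Rfx6 (adjusted p = 0.00544).

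Reln, which encodes the secreted glycoprotein reelin, had 5.41, 4.17 and 5.22 CPM in the double mutant and 65.6, 10.53 and 49.8 CPM in the Asb2 cKO (log2 difference -2.62, interval -3.91 to -1.33, adjusted p = 0.999). Scd1, the stearoyl-CoA desaturase, had 13.7, 12.6 and 16.2 CPM in the double mutant and 57.5, 22.2 and 38.9 CPM in the Asb2 cKO (log2 difference -1.35, interval -1.99 to -0.71, adjusted p = 0.999). In both genes Asb2 cKO library 2 lay nearest to the double mutant, and both passed when that library was left out (adjusted p = 0.000225 for Reln and 0.00814 for Scd1). Without Asb2 cKO libraries 1 and 3 instead, the log2 difference was -1.03 for Reln and -0.64 for Scd1 (adjusted p = 0.877 for both), and with Xist as a covariate it was -1.48 for Reln and -0.78 for Scd1 (adjusted p = 0.999 for both). Tgfbi, a matrix protein induced by TGF-beta, was higher, with 33.9, 27.5 and 31.5 CPM in the double mutant and 19, 19.9 and 16.7 CPM in the Asb2 cKO (log2 difference 0.72, interval 0.40 to 1.05, adjusted p = 0.999). Its groups did not overlap, and the control libraries spanned both, at 18.2, 50.2 and 55.3 CPM. The 4933404O12Rik transcript, the heparan sulfate sulfotransferase gene Hs3st3b1, the RAS-pathway inhibitor gene Spred3 and the phosphodiesterase gene Enpp1 were lower in all 3 double mutant libraries. Their log2 differences were -1.11, -0.91, -0.85 and -1.20. The gene model RP23-461P14.6 was higher at 1.97. Its group means were 2.47 CPM in the double mutant and 0.279 CPM in the Asb2 cKO, so it reached 1 CPM only through the double mutant.

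The targeted genes themselves did not separate the groups. Asb2 (ENSMUSG00000021200, chr12:103321142-103356001, minus strand) stood at 122, 121 and 153 CPM in the double mutant and 77.8, 163 and 115 CPM in the Asb2 cKO. The groups overlapped, with a log2 difference of 0.21 (interval -0.30 to 0.72, adjusted p = 0.999). Asb2 stood at 125, 113 and 197 CPM in the Flna-labelled libraries and 289, 183 and 218 CPM in the control. Its log2 difference from the control was -0.78 in the double mutant (adjusted p = 0.00724, limma) and -0.99 in the Asb2 cKO (adjusted p = 0.0248). In the Flna-labelled group, with 1 floxed Asb2 allele like the control, it was -0.68 (adjusted p = 0.334). Flna (ENSMUSG00000031328, chrX:74223461-74249820, minus strand) stood at 1012, 1012 and 1146 CPM in the libraries labelled double mutant, against 1032, 869 and 725 CPM in the Asb2 cKO, beside 958, 1011 and 990 CPM in the Flna-labelled libraries and 490, 554 and 721 CPM in the control. Flna RNA was thus not lower in the libraries labelled as Flna-floxed, with a log2 difference from the Asb2 cKO of 0.28 (interval -0.07 to 0.64, adjusted p = 0.999). The counts cover the whole gene, the deleted exons are not given in the sources used here, and an allele that is transcribed without them would still be counted, so these values do not check the Flna label. The name double mutant stands for that label here.

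Flnc, the filamin of striated muscle, overlapped between the groups. It had 851.5, 1176 and 1429 CPM in the double mutant and 758, 1544 and 954 CPM in the Asb2 cKO (log2 difference 0.12, interval -0.47 to 0.71). Of the 18 genes tested in a list of the ligase's subunits, related ASB proteins, filamins and filamin partners, 0 passed (limma), and the median difference was 0.03. The one with the smallest p was Asb4, a member of the same family, with 138, 118 and 165 CPM in the double mutant and 196, 158 and 205 CPM in the Asb2 cKO (log2 difference -0.41, interval -0.76 to -0.07).

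Against the control, 4523 genes (32.3%) passed in the double mutant, with 15.6% of genes higher and 16.7% lower, and 3033 (21.6%) in the Asb2 cKO, with 10.7% of genes higher and 10.9% lower. Only 10 genes (0.072%) passed in the Flna-labelled group, 4 of them higher (0.0288%) and 6 lower (0.0432%). These 3 comparisons share the control libraries. Gene lists of pathways and cell types, 40 in all, were described by the count of members and their median. In every one of these lists 0 members passed in limma. The other tools called mt-Nd3 among the mitochondrially encoded genes (edgeR and DESeq2) and Fgb among the liver and yolk sac markers (DESeq2). At unadjusted p below 0.05 stood 0 to 13 members of a list, the most in the sterol list. The lists with the highest medians were the amino acid stress response (0.32), the endothelium and endocardium (0.27) and the transfer RNA synthetases (0.18), and those with the lowest were the liver and yolk sac markers (-1.40), primitive red cell genes (-0.63) and sterol synthesis and uptake (-0.41), beside a median of 0.016 over all genes.

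**Figure D3:**
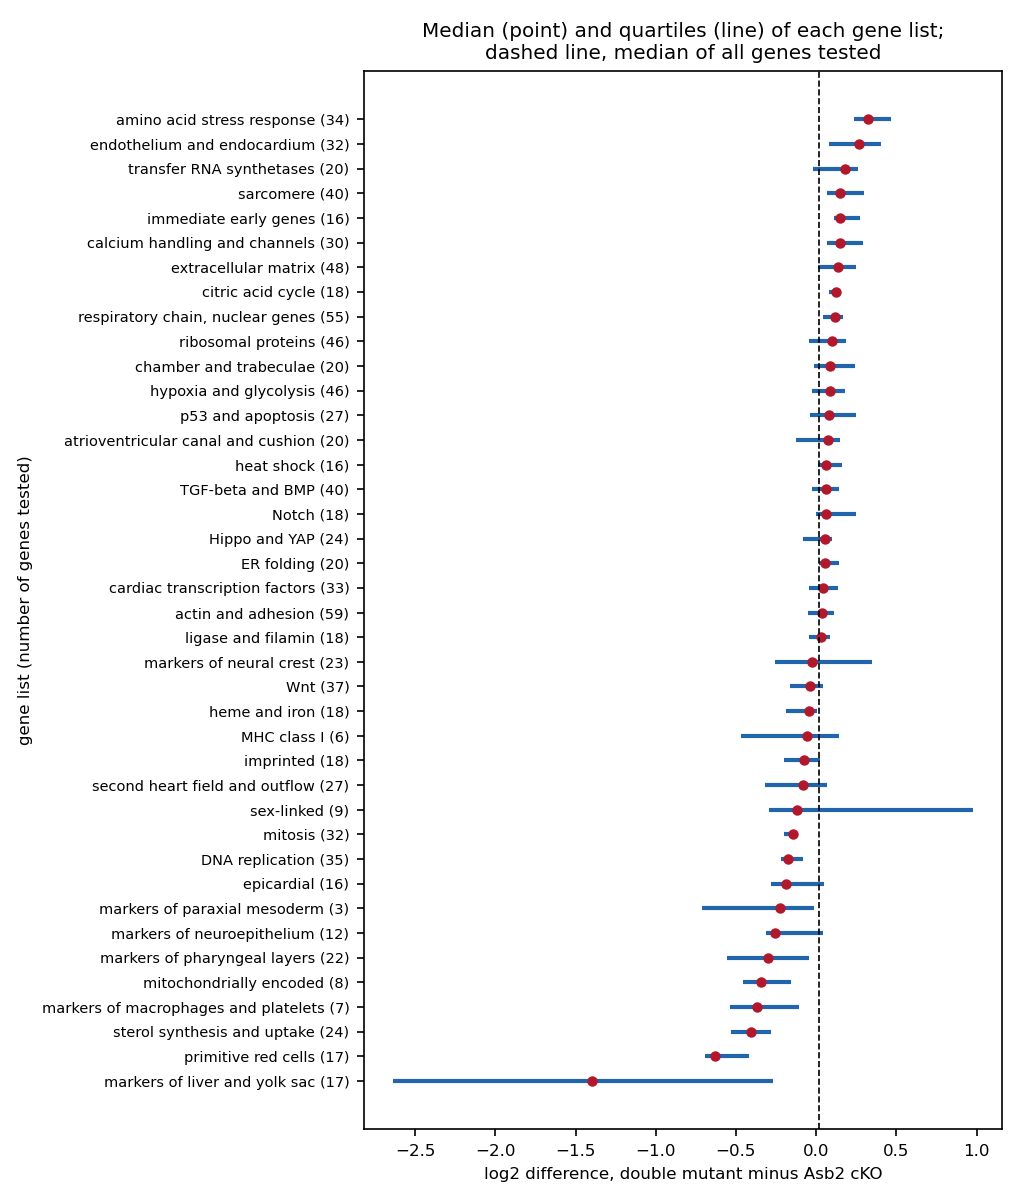
Median (point) and lower to upper quartile (line) of the log2 difference, double mutant minus Asb2 cKO (x axis), for each gene list (y axis, with the number of genes tested), and the median of all genes as a dashed line. Most medians lie within 0.2 log2 of 0, and the liver and yolk sac markers reach furthest, with a median of -1.40.

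Genes of the response to low oxygen and of glycolysis stood far above the control in both genotypes and near each other between them. The list held 46 tested genes, with a median log2 difference of 0.09 between double mutant and Asb2 cKO, 33 higher and 13 lower, with 2 higher (4.35%, beside 1.59% of all genes) and 1 lower (2.17%, beside 1.77%) at unadjusted p below 0.05. The median log2 difference from the control was 1.72 in the double mutant and 1.54 in the Asb2 cKO, and -0.02 in the Flna-labelled group. In the double mutant 41 members were called higher than the control, beside 15.6% of all genes, and in the Asb2 cKO 40, beside 10.7%. Ndufa4l2, a hypoxia-induced mitochondrial protein, had 85.5, 75.9 and 69.0 CPM in the double mutant, 53.2, 80.7 and 66.7 CPM in the Asb2 cKO, against 3.09, 2.63 and 1.78 CPM in the control. The difference between double mutant and Asb2 cKO was 0.21 log2 (interval -0.15 to 0.57), small beside the 4.71 log2 by which the double mutant and the 4.49 log2 by which the Asb2 cKO exceeded the control. Vegfa, the vascular growth factor, had 297, 292 and 302 CPM in the double mutant and 181, 443.5 and 211 CPM in the Asb2 cKO (log2 difference 0.21, interval -0.42 to 0.83). Pdk1, which holds pyruvate back from mitochondrial oxidation, had 697, 701 and 720.5 CPM in the double mutant and 578, 788.5 and 660 CPM in the Asb2 cKO (log2 difference 0.07, interval -0.25 to 0.40). In all 3 genes the double mutant lay inside the range of the Asb2 cKO or just above it, and the Asb2 cKO libraries varied more than the double mutant.

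A pair of members differed further. Eno2, the neuronal enolase, had 50.7, 67.2 and 76.2 CPM in the double mutant and 76.9, 179 and 114 CPM in the Asb2 cKO, against 8.06, 5.02 and 5.58 CPM in the control (log2 difference between double mutant and Asb2 cKO -0.86, interval -1.47 to -0.25, adjusted p = 0.999). Car12, a membrane carbonic anhydrase, went the other way, with 11.4, 6.11 and 7.23 CPM in the double mutant and 3.87, 1.86 and 4.16 CPM in the Asb2 cKO (log2 difference 1.22, interval 0.49 to 1.94, adjusted p = 0.999). Neither gene's groups overlapped.

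Genes of the amino acid stress response, which the transcription factor ATF4 controls, had the highest list median. Of 34 genes tested 33 were higher in the double mutant, with a median of 0.32, beside 7533 of 14037 genes tested that were higher, and 2 were higher at unadjusted p below 0.05 (5.88%, beside 1.59% of all genes). The median log2 difference from the control was 1.57 in the double mutant, where 30 members were called higher, and 1.27 in the Asb2 cKO, where 25 were. Of all genes, 15.6% were called higher than the control in the double mutant and 10.7% in the Asb2 cKO. Asns, asparagine synthetase, had 282, 200.6 and 172 CPM in the double mutant and 120.5, 194 and 139.5 CPM in the Asb2 cKO (log2 difference 0.53, interval 0.05 to 1.00). Trib3, a pseudokinase induced by ATF4, had 131, 89.1 and 75.3 CPM in the double mutant and 29.9, 128 and 50.9 CPM in the Asb2 cKO (log2 difference 0.72, interval -0.31 to 1.75). Aldh1l2, a mitochondrial folate enzyme, had 71.4, 52.5 and 48.9 CPM in the double mutant and 12.4, 104.5 and 17.96 CPM in the Asb2 cKO (log2 difference 0.97, interval -0.52 to 2.46). In each of the 3 genes Asb2 cKO library 2 was within or above the range of the double mutant. Asb2 cKO libraries 1 and 3 were below that range. Aldh1l2 passed when Asb2 cKO library 2 was left out (adjusted p = 0.00721, limma). The list median became 0.47 without Asb2 cKO library 2 and -0.03 without Asb2 cKO libraries 1 and 3.

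Transfer RNA synthetase genes, which charge transfer RNAs with amino acids, had a median of 0.18 over 20 genes, 14 of them higher. Gars, for glycine, had 522, 469 and 397 CPM in the double mutant and 298, 408 and 342 CPM in the Asb2 cKO (log2 difference 0.41, interval 0.06 to 0.76). Sars, for serine, had 461, 399 and 312 CPM in the double mutant and 235.5, 348 and 271 CPM in the Asb2 cKO (log2 difference 0.46, interval 0.05 to 0.87). Both genes were higher in the double mutant by their means, with overlapping libraries, and neither passed (adjusted p = 0.999 for both).

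Primitive red cell genes were far below the control in both genotypes, and most had a lower estimate in the double mutant than in the Asb2 cKO, none of which passed. Over 17 genes tested of 29 listed, 14 were lower, the median was -0.63, 4 were lower (23.5%, beside 1.77% of all genes) and 1 higher (5.88%, beside 1.59%) at unadjusted p below 0.05, and 5 were lower without overlap, beside 3.53% of all genes. From the control the median log2 difference was -3.48 in the double mutant, where 16 members were called lower, and -2.81 in the Asb2 cKO, where 15 were. Of all genes, 16.7% were called lower than the control in the double mutant and 10.9% in the Asb2 cKO. Hbb-y, an embryonic beta-like globin, had 322, 234 and 169 CPM in the double mutant, 231, 347 and 567.5 CPM in the Asb2 cKO, against 3668, 4119 and 4491 CPM in the control (log2 difference between double mutant and Asb2 cKO -0.61, interval -1.35 to 0.12). Slc4a1, the anion exchanger of the red cell membrane, had 5.25, 4.47 and 5.03 CPM in the double mutant and 9.79, 6.76 and 19.9 CPM in the Asb2 cKO, without overlap (log2 difference -1.09, interval -1.83 to -0.35, adjusted p = 0.999). Hba-a1, an alpha globin, had 8.01, 4.92 and 5.57 CPM in the double mutant and 8.23, 13.3 and 11.9 CPM in the Asb2 cKO, again without overlap (log2 difference -0.80, interval -1.36 to -0.25). All globin genes together took 0.0332 to 0.0604% of signal in the double mutant, 0.0511 to 0.117% in the Asb2 cKO and 0.708 to 0.782% in the control. Asb2 cKO library 3 held the most, and without it the list median was -0.31. Sptb, a beta spectrin, was the member higher at unadjusted p below 0.05, with 87.2, 107 and 121 CPM in the double mutant and 70.7, 81.3 and 76.1 CPM in the Asb2 cKO.

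Respiratory genes of the nucleus and of the mitochondrial genome had medians on different sides of 0. The 55 nuclear genes of the respiratory chain had a median of 0.12 with 46 higher. The 18 genes of the citric acid cycle had a median of 0.12 with all 18 higher, each by 0.30 log2 or less. Of all genes tested, 7533 of 14037 were higher. Without Asb2 cKO library 1 the medians were 0.035 for the nuclear respiratory genes and 0.032 for the cycle, beside 0.017 over all genes. Both lists stayed below the control, at medians of -0.52 and -0.56 in the double mutant and -0.65 and -0.66 in the Asb2 cKO. Ndufa3, a complex I subunit, had 65.3, 73.7 and 65.4 CPM in the double mutant and 45.7, 46.9 and 61.9 CPM in the Asb2 cKO, without overlap (log2 difference 0.41, interval 0.09 to 0.73, adjusted p = 0.999). The mitochondrially encoded genes other than mt-Nd3 were lower by 0.01 to 0.52 log2. mt-Cytb, of complex III, had 266, 300 and 440 CPM in the double mutant, 453.5, 463 and 453 CPM in the Asb2 cKO, against 1434, 1649 and 1051 CPM in the control (log2 difference between double mutant and Asb2 cKO -0.48, interval -0.87 to -0.08). mt-Co1, of complex IV, had 691, 872 and 1081 CPM in the double mutant and 1081, 1342 and 1142 CPM in the Asb2 cKO (log2 difference -0.45, interval -0.85 to -0.05). Double mutant library 3 came nearest to the Asb2 cKO in both.

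**Figure D4:**
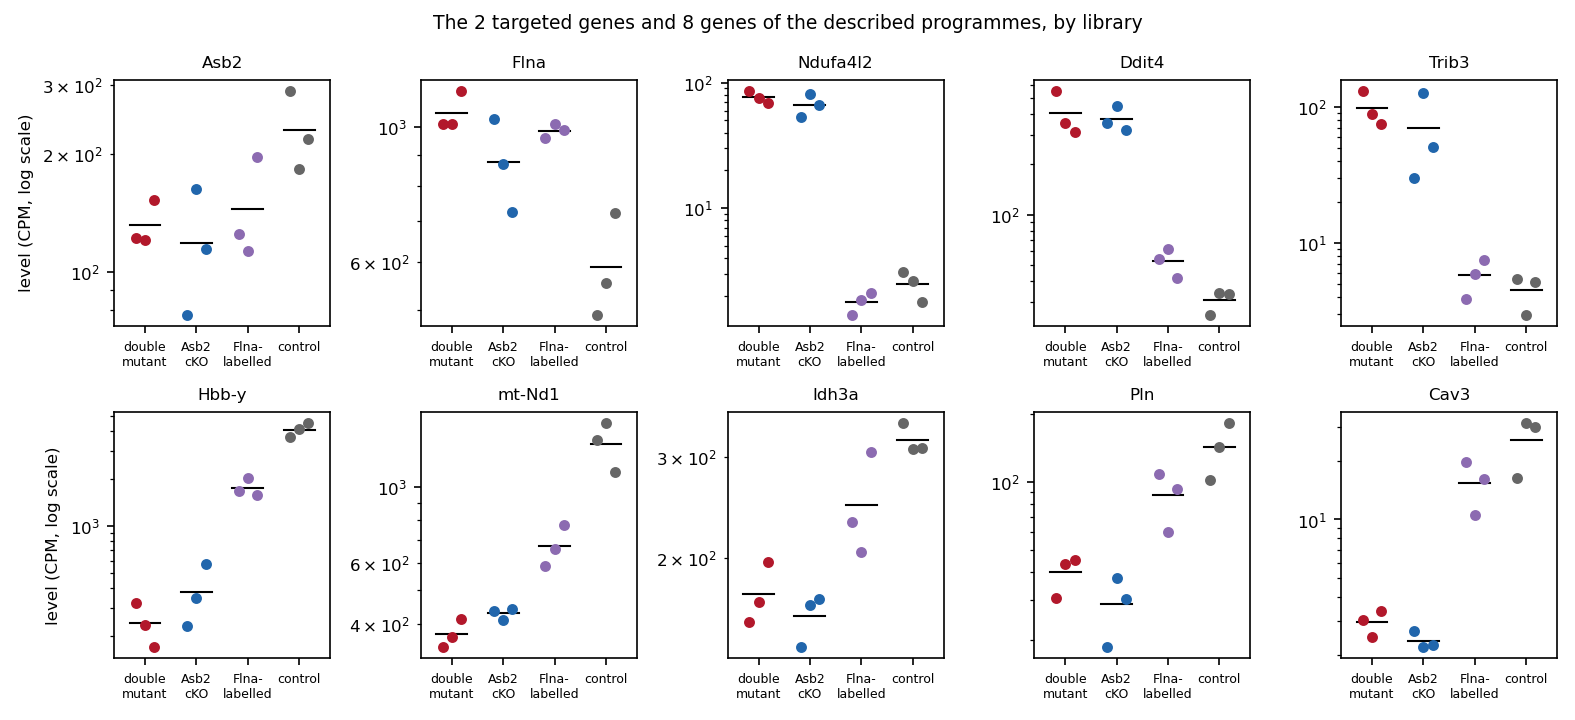
Levels in CPM on log axes (y) in the 3 libraries of each group (x, points), with the group mean as a line, for Asb2, Flna and 8 genes of the described programmes. For the 8 programme genes the double mutant and Asb2 cKO libraries lie together and apart from the control, as with Ndufa4l2 at 69.0 to 85.5 CPM in the double mutant and 1.78 to 3.09 CPM in the control.

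Heart muscle programmes differed little. Over 40 sarcomere genes the median was 0.15 with 35 higher, over 30 genes of calcium handling and ion channels 0.15 with 25 higher, over 33 cardiac transcription factors 0.04 and over 20 chamber and trabecular genes 0.09. Pln, the inhibitor of the calcium pump of the sarcoplasmic reticulum, had 30.7, 43.4 and 45.2 CPM in the double mutant, 18.5, 37.7 and 30.2 CPM in the Asb2 cKO, against 102, 143 and 181 CPM in the control. Its difference between double mutant and Asb2 cKO was 0.50 log2 (interval -0.06 to 1.05). Cav3, the caveolin of muscle, had 3.05, 2.48 and 3.37 CPM in the double mutant and 2.65, 2.20 and 2.27 CPM in the Asb2 cKO, against 16.3, 31.2 and 29.8 CPM in the control (log2 difference between double mutant and Asb2 cKO 0.26, interval -0.30 to 0.83). Lmod3, which nucleates actin filaments in striated muscle, had 53.5, 76.0 and 80.6 CPM in the double mutant and 33.0, 48.1 and 62.4 CPM in the Asb2 cKO (log2 difference 0.57, interval 0.06 to 1.08). Asb2 cKO library 1 was lowest in Pln and Lmod3, and without it the medians were -0.08 for the sarcomere list and -0.02 for the calcium and channel list.

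Tnnt1, the slow skeletal troponin T, was outside the lists and among the 10 genes with the smallest interaction p. It had 132, 146 and 136 CPM in the double mutant and 66.1, 117 and 99.1 CPM in the Asb2 cKO, without overlap, against 39.3, 36.1 and 53.01 CPM in the Flna-labelled group and 72.2, 61.1 and 65.7 CPM in the control (log2 difference between double mutant and Asb2 cKO 0.59, interval 0.17 to 1.01, adjusted p = 0.999).

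Endothelial and endocardial genes leaned towards the double mutant. Of 32 genes 26 were higher, with a median of 0.27, and 6 were higher and 0 lower at unadjusted p below 0.05, which is 18.8% beside 1.59% of all genes. Emcn, the endothelial sialomucin endomucin, had 51.1, 41.2 and 40.9 CPM in the double mutant and 26.6, 37.5 and 26.3 CPM in the Asb2 cKO, without overlap (log2 difference 0.56, interval 0.18 to 0.94). Ramp2, the coreceptor for adrenomedullin, had 63.1, 71.6 and 84.6 CPM in the double mutant and 49.8, 53.9 and 59.4 CPM in the Asb2 cKO, also without overlap (log2 difference 0.42, interval 0.11 to 0.73). Vwf, the von Willebrand factor, had 112, 144 and 167 CPM in the double mutant and 59.2, 137 and 66.1 CPM in the Asb2 cKO (log2 difference 0.77, interval 0.13 to 1.42). None of the 3 passed (adjusted p = 0.999 each), though Vwf passed when Asb2 cKO library 2 was left out (adjusted p = 0.0314, limma). Asb2 cKO library 2 was the highest of its group in Emcn and Vwf but not in Ramp2. The list median was 0.40 without that library and -0.03 without Asb2 cKO libraries 1 and 3.

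Cholesterol is made from acetyl-CoA through the mevalonate pathway, and the transcription factor SREBP2 (Srebf2) raises the genes of its enzymes together when sterols are scarce. All 24 genes of the sterol list were lower in the double mutant, with a median of -0.41, beside 46.3% of all genes that were lower. At unadjusted p below 0.05 stood 13 of them (54.2%, beside 1.77% of all genes), and 11 were lower without overlap, beside 3.53% of all genes. Fdft1, the squalene synthase, had 34.7, 33.2 and 42.6 CPM in the double mutant and 53.7, 49.6 and 59.9 CPM in the Asb2 cKO (log2 difference -0.56, interval -0.88 to -0.24, adjusted p = 0.999). Hmgcs1, which makes the precursor HMG-CoA, had 153, 147 and 156 CPM in the double mutant and 221, 174 and 226 CPM in the Asb2 cKO (log2 difference -0.44, interval -0.73 to -0.14). Tm7sf2, a sterol reductase, had 4.60, 2.53 and 4.43 CPM in the double mutant and 11.9, 5.70 and 10.2 CPM in the Asb2 cKO (log2 difference -1.14, interval -1.84 to -0.44). In all 3 genes every double mutant library was below every Asb2 cKO library, and Asb2 cKO library 2 was the lowest of its group.

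The regulator of the pathway was lower by its estimate too. Srebf2 had 160, 171 and 193.5 CPM in the double mutant and 237, 202 and 235 CPM in the Asb2 cKO (log2 difference -0.36, interval -0.64 to -0.08). Its groups did not overlap. Set against the mean of the control, the median of the list was -0.79, -0.81 and -0.79 log2 in double mutant libraries 1, 2 and 3 and -0.19, -0.73 and -0.26 log2 in Asb2 cKO libraries 1, 2 and 3. It was 0.19, 0.24 and 0.06 log2 in the Flna-labelled libraries. The median difference between double mutant and Asb2 cKO was -0.56 without Asb2 cKO library 2 and -0.13 without Asb2 cKO libraries 1 and 3, the pair with high Xist and with liver transcripts. The part of those transcripts in the sterol result was not tested.

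Cell cycle genes leaned the other way from the heart programmes. All 32 mitosis genes were lower in the double mutant, by 0.04 to 0.32 log2 with a median of -0.14, and 30 of 35 DNA replication genes were lower, with a median of -0.18. At unadjusted p below 0.05 stood 2 mitosis genes (6.25%, beside 1.77% of all genes), both lower. Ccnb1, the mitotic cyclin B1, had 69.0, 65.0 and 68.5 CPM in the double mutant and 94.7, 72.5 and 85.5 CPM in the Asb2 cKO, without overlap (log2 difference -0.31, interval -0.60 to -0.02). Ccnd2, the cyclin that drives entry into the cycle, was higher, with 799, 922 and 816 CPM in the double mutant and 546, 653 and 611 CPM in the Asb2 cKO (log2 difference 0.49, interval 0.18 to 0.79, adjusted p = 0.999). Without Asb2 cKO libraries 1 and 3 the medians were 0.04 for mitosis and 0.27 for replication, so the direction of both lists reversed.

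Liver and yolk sac markers had the list median furthest from 0 and were uneven between Asb2 cKO libraries. Of 28 liver and yolk sac genes 22 were listed and 17 tested. Their summed level was 102 to 145 CPM in the double mutant and 146 to 302 CPM in the Asb2 cKO, the median log2 difference was -1.40, 16 of 17 were lower, and 8 were lower at unadjusted p below 0.05 (47.1%, beside 1.77% of all genes). The median was -0.41 without Asb2 cKO libraries 1 and 3, -0.44 with Xist as a covariate and -0.74 with a pseudocount of 2, against -1.85 without Asb2 cKO library 2. Afp, alpha-fetoprotein, had 0, 0.646 and 0.644 CPM in the double mutant and 69.9, 1.06 and 41.6 CPM in Asb2 cKO libraries 1, 2 and 3 (log2 difference -4.26, interval -7.04 to -1.49, adjusted p = 0.999). Alb, albumin, and Hnf4a, a hepatocyte transcription factor, had 0 reads in every double mutant library, against 1.93, 0 and 1.03 CPM and 4.82, 0 and 0.722 CPM in Asb2 cKO libraries 1, 2 and 3. Vtn, Itih2, Serpinf2, Fgb and Ambp, which encode plasma proteins, were above 8 CPM in Asb2 cKO libraries 1 and 3 and at 1.41 CPM or less in Asb2 cKO library 2. The Asb2 cKO libraries that were high in liver genes were the same 2 that held Xist and Y-linked RNA together. Liver genes were not limited to that genotype, since Afp had 93.7, 372 and 134 CPM in the Flna-labelled group and 158, 3.13 and 200 CPM in the control. Afp, Serpinf2, Itih2, Fgb and Ambp passed when Asb2 cKO library 2 was left out (adjusted p of 0.000279 to 0.00078). Without Asb2 cKO libraries 1 and 3 instead, the log2 difference of Vtn was -0.94 (adjusted p = 0.877) and that of Itih2 turned to 0.27 (adjusted p = 0.958), and with Xist as a covariate that of Afp was -1.68 (adjusted p = 0.999). Rbp4, Prox1 and Hhex, in the same list, were within 0.11 log2 of no difference. These 3 genes made up most of the summed level in the double mutant, with Prox1 at 45.94, 56.55 and 74.47 CPM and Rbp4 at 21.85, 36.21 and 40.59 CPM.

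**Figure D5:**
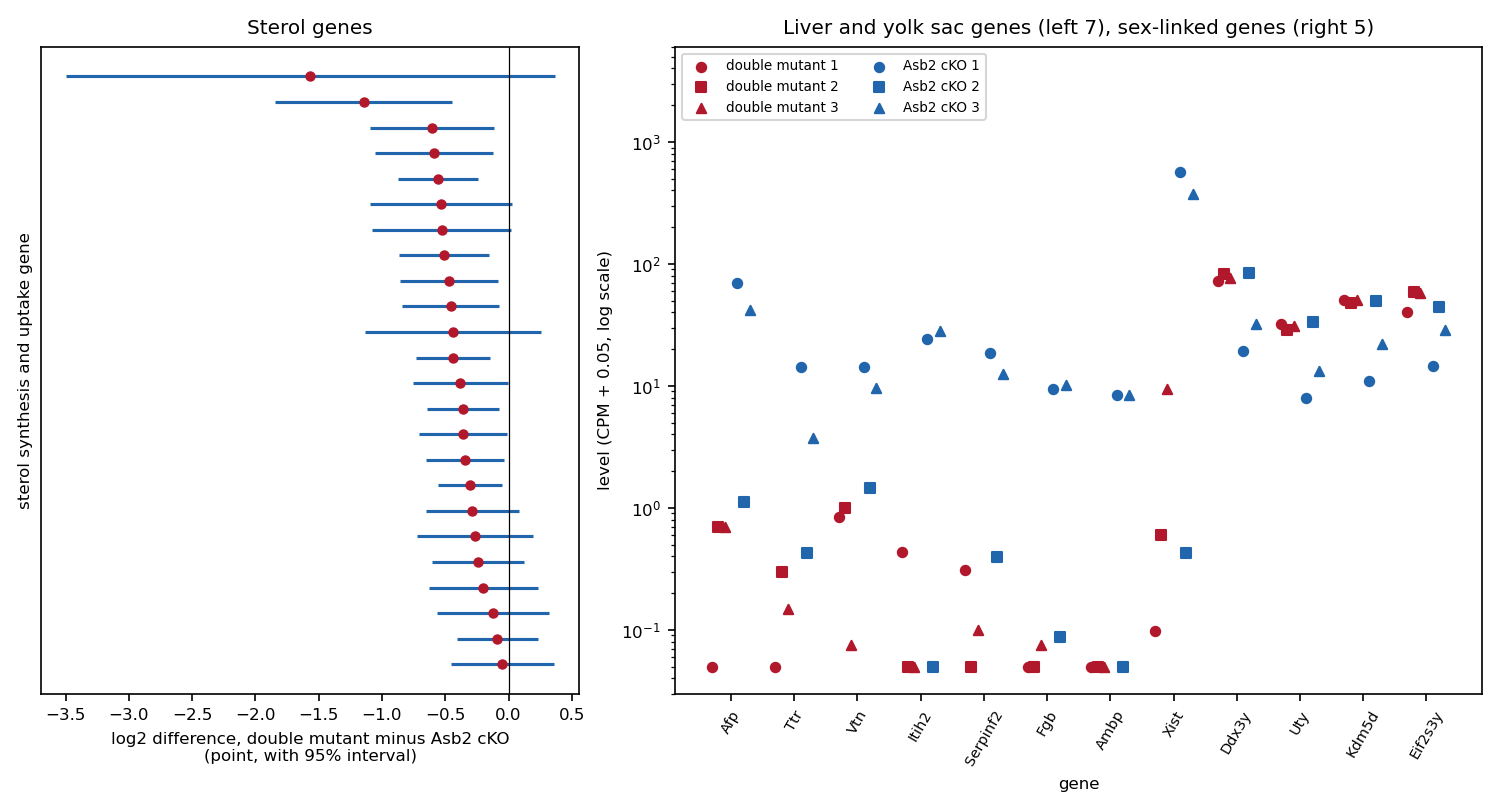
Left, log2 difference, double mutant minus Asb2 cKO (x axis), with its 95% interval for each gene of the sterol list (y axis, ordered by the difference). Right, level in CPM + 0.05 on a log axis (y) of 7 liver and yolk sac genes and 5 sex-linked genes (x) in each library, the double mutant in red left of the Asb2 cKO in blue, where Asb2 cKO libraries 1 and 3 stand apart from the other 4 libraries.

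Other neighbouring tissues were present in both groups at uneven levels. Over 25 markers of the pharyngeal layers the summed level was 426, 268 and 133 CPM in double mutant libraries 1, 2 and 3 and 419, 249 and 302 CPM in the Asb2 cKO, with a median of -0.30 over 22 genes tested. Epcam, an epithelial adhesion molecule, ranged from 21.6 to 74.1 CPM in the double mutant and from 37.1 to 72.0 CPM in the Asb2 cKO. Neural crest markers had a median of -0.03 over 23 genes, with Sox10 at 0.883, 2.58 and 0.322 CPM in the double mutant and 5.16, 0.152 and 3.13 CPM in the Asb2 cKO. Neuroepithelial markers had a median of -0.26 over 12 genes, paraxial mesoderm markers -0.22 over 3, macrophage and platelet markers -0.37 over 7, and epicardial genes -0.19 over 16. Wt1, the epicardial transcription factor, had 24.4, 15.3 and 23.5 CPM in the double mutant and 22.3, 22.8 and 19.6 CPM in the Asb2 cKO. The groups overlapped for all of these named markers. The part of neighbouring tissue in the differences of Pyy, Rfx6, Foxa2 and Reln was not tested.

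Pathways tied to the cytoskeleton and to signalling, and the other lists given next, had medians of -0.08 to 0.15, beside 0.016 over all genes. The actin and adhesion list had a median of 0.04 over 59 genes, each within 0.31 log2 of no difference. Rock1 and Rock2, the kinases that raise actomyosin tension, differed by 0.26 log2 (interval -0.01 to 0.54) and 0.28 log2 (interval -0.02 to 0.57). Hippo and YAP genes had a median of 0.06 over 24 genes, and their target Ctgf had 253, 266 and 324 CPM in the double mutant and 135, 259 and 243 CPM in the Asb2 cKO (log2 difference 0.45, interval -0.05 to 0.96). Medians were 0.06 for the TGF-beta and BMP list and for the Notch list, -0.04 for Wnt, 0.14 for extracellular matrix, 0.08 for p53 and apoptosis, 0.15 for immediate early genes, 0.06 for ER folding and for heat shock, and 0.10 for ribosomal proteins. The remaining lists had medians of -0.04 for heme and iron, 0.07 for the atrioventricular canal and cushion, -0.08 for the second heart field and outflow, -0.07 for imprinted genes and -0.06 for MHC class I, in which H2-Q4 was lower in all 3 double mutant libraries (7.73, 7.55 and 7.70 CPM, against 14.0, 9.96 and 11.4 CPM in the Asb2 cKO). Of 16 immediate early genes 15 were higher, and 12.5% were higher at unadjusted p below 0.05, beside 1.59% of all genes. Without Asb2 cKO libraries 1 and 3 the median of that list was -0.003. Egr1, an immediate early gene, had 15.6, 13.3 and 16.6 CPM in the double mutant. It had 5.01, 17.2 and 4.197 CPM in the Asb2 cKO, where library 2 stood with the double mutant. Egr1 passed when that library was left out (adjusted p = 0.0153, limma).

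Whether the difference that goes with the Flna label depends on the Asb2 genotype was tested as an interaction, double mutant minus Asb2 cKO less Flna-labelled minus control, over 13981 genes and 12 libraries. By limma 0 genes (0%) passed, with 1372 (9.81%) at unadjusted p below 0.05. The quasi-likelihood test of edgeR gave 0 and DESeq2 gave 71. The genes with the smallest p were Alb (interaction -5.66 log2, interval -7.40 to -3.93, adjusted p = 0.0887) and Vtn (-6.77 log2, interval -8.88 to -4.66, adjusted p = 0.0887). Vtn, vitronectin, had 0.787, 0.944 and 0.0248 CPM in the double mutant, 14.1, 1.41 and 9.63 CPM in the Asb2 cKO, beside 9.41, 22.1 and 8.78 CPM in the Flna-labelled group and 0, 0.741 and 0.24 CPM in the control. Itih2 and Cebpa, also expressed in liver, had interactions of -9.11 and -3.87 log2 (adjusted p = 0.403 and 0.208).

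Among the next genes Reln had an interaction of -4.68 log2 (interval -6.34 to -3.02, adjusted p = 0.208, limma), with 23.3, 39.3 and 45.1 CPM in the Flna-labelled group and 10.2, 5.79 and 8.28 CPM in the control. By group means it was high in the Asb2 cKO and in the Flna-labelled group and low in the double mutant and the control. Within the Asb2 cKO, libraries 1 and 3 were high (65.6 and 49.8 CPM), and library 2 (10.53 CPM) lay near the control. Scd1 too had higher means in the Asb2 cKO and the Flna-labelled group, with 38.5, 55.2 and 35.0 CPM in the Flna-labelled group and 29.4, 18.4 and 22.6 CPM in the control (interaction -2.21 log2, interval -3.10 to -1.31, adjusted p = 0.299, limma). Its level in Asb2 cKO library 2 (22.2 CPM) was inside the range of the control. Plxna2, a semaphorin receptor of the outflow tract, had 53.1, 53.5 and 54.7 CPM in the double mutant, 85.8, 62.9 and 59.1 CPM in the Asb2 cKO, beside 59.5, 69.9 and 50.1 CPM in the Flna-labelled group and 29.2, 31.6 and 38.5 CPM in the control (interaction -1.18 log2, interval -1.66 to -0.71, adjusted p = 0.285). Ebf1, Tnnt1 and Tmem37 had positive interactions of 1.27, 1.23 and 1.70 log2 (adjusted p = 0.285, 0.403 and 0.403). Without Asb2 cKO library 2, 18 genes passed, 15 of them with a negative interaction. They include Itih2, Reln and Vtn and the sterol genes Hmgcs1 (-0.77 log2) and Dhcr7 (-1.02 log2), and without Flna-labelled library 2 the count was 1.

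The authors' deposited table for the same 2 groups lists 22 genes at an FDR below 0.05, 6 higher and 16 lower in the double mutant. In the authors' deposited table mt-Nd3 comes first (FDR 8.36e-11), with Reln and Gm10260 next (FDR 7.77e-08 each), and Gm11942 is listed at FDR 0.0191, while Gm13394 is not among the 22. Of the 16 lower genes in the authors' deposited table, Fgb, Ambp, Alb, Ttr, Serpinf2, Afp, Hnf4a and Itih2 are liver genes whose level came from Asb2 cKO libraries 1 and 3. Of the 6 higher genes in the authors' deposited table, Prap1 (FDR 0.00487) and Napsa (FDR 0.0157) rest on 1 library. Prap1, a secreted acidic protein of epithelia, had 2.93, 0.546 and 400 CPM in double mutant libraries 1, 2 and 3 and 0.0759, 0.608 and 0 CPM in the Asb2 cKO, and Napsa, an aspartic protease, had 0.143, 0.0993 and 6.22 CPM in the double mutant and 0 CPM in each Asb2 cKO library. In limma neither passed (adjusted p = 0.999 for both).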

How the data were processed

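Illumina libraries were made from total RNA of hearts, extracted with the RNeasy Micro Kit per the labels. STAR, HTSeq, edgeR and the build mm10 are named in the submitters' processing notes, and versions, annotation, strand and the handling of multiply mapping reads are not given in the sources used here. The authors deposited 4 tables of gene levels as a signal that their name calls CPM. All values (100.0%) are whole multiples of 1 read within 0.01 read, so whole reads were recovered for edgeR 4.0.16 and DESeq2 1.42.0. The plan had assumed plain CPM. The deposited log2 fold changes, p-values and FDR of the authors were used only as quoted, and deposited gene length served to remove a trend and to scale levels per kilobase. Libraries shared by tables agreed to 4.4e-06 CPM, and 13 columns without headers were not used.

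Levels were tested as log2(CPM + 0.5) with limma 3.58.1 (trend, robust) in R 4.3.3 over the 6 libraries, with a mean of at least 1 CPM and Benjamini-Hochberg adjustment at 0.05, after a check on simulated counts. Fold changes on this scale understate changes of low genes. Genes named were Asb2, Flna, the 15 with the smallest p, 2 members of each of 40 lists, 10 for the interaction, and others chosen after their values were seen (among them the source genes, Flnc and genes of the described programmes). Members, lists and tests were chosen with earlier results of these data known. Sequences and positions are from GENCODE M21 (GRCm38), which holds 99.1% of identifiers. Replicate libraries differed by more than sampling noise (mean chi-square per gene 42.4 to 126). Floors cover counting error only. Some genes are not reported here.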

Additional observations from a re-analysis of the deposited data

Results flagged for a closer look

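Gm26619, a long noncoding RNA on chromosome 13 (97751112 to 97760965, plus strand, GRCm38), had a mean below 1 CPM over the 6 libraries and so entered no comparison. It averaged 1.07 CPM in the double mutant (0.716, 1.59 and 0.891 CPM, from 30, 64 and 36 reads) and had 0 reads in each Asb2 cKO and each control library. Among genes below that level it alone had more than 3 reads in every double mutant library and 0 in all Asb2 cKO and control libraries, which is why it is listed. Against a floor of 3 reads over the Asb2 cKO group its mean was at least 29.0-fold higher. Its annotation overlaps that of Gm10260, the Rps18 copy on the minus strand, and since strand in the counting is not given in the sources used here, reads of the 2 genes cannot be told apart. It was not listed for the Flna-labelled libraries.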

How the results depend on the processing

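The count of 3 genes stayed between 2 and 4 (not always the same genes, since mt-Nd3 stood in place of Gm13394 in limma without trend or robust fitting) under that setting, other pseudocounts, filters, rescalings, library weights, an Xist covariate, edgeR and removal of trends over length and level, the last chosen after seeing the data. It was 14 with DESeq2 and 0 in the joint fit of all 4 groups, and 1 (Gm11942) without the 2 Asb2 cKO libraries with Xist over 100 CPM, a fit also added after seeing the data that assumes the lone Asb2 cKO library varies like the double mutant. Leaving out 1 library gave 2 to 26, with 26 (12 higher, 14 lower) without Asb2 cKO library 2 and 2 in each other case. The interaction count of 0 became 8 with library weights, 5 with the Xist covariate and 71 with DESeq2, and 0 to 18 on leaving out 1 library. The Asb2 difference of 0.21 turned to -0.11 with the Xist covariate and to -0.31 without the Xist-high pair, and ranged from -0.06 to 0.47 on leaving out 1 library (-0.06 without Asb2 cKO library 1). Flna ranged from 0.16 to 0.41 on leaving out 1 library. The cause of these shifts was not tested. The fit with a replicate block gave 3 genes, 0 for the interaction, 0.21 for Asb2 and 0.28 for Flna, changing no call. The libraries numbered 1 deviated together to some degree (correlation 0.353), and those numbered 2 and 3 did not (-0.066 and 0.015). Not every library correlated best with its own number. Of the 40 list medians under 21 settings each, 808 values stayed within 1 SD between libraries and 32 moved by more, and 21 of 40 changed side of 0 without the Xist-high pair. Depth was higher in the double mutant than in the Asb2 cKO, so low genes rested on fewer reads in the Asb2 cKO.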
